A study of Homo sapiens with 4 samples.

Results

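The regions described here are the distal places where the peak lists of 2 transcription factors, ATOH8 and TCF3, coincided in DU145 cells. A peak was taken when it shared at least 1 bp with a peak of the other list and its midpoint lay more than 5 kb from every end of a RefSeq GRCh38 protein-coding gene, on chromosomes 1 to 22 and X. The rule took 173 of 4951 ATOH8 peaks and 171 of 11330 TCF3 peaks. They formed 176 overlaps, in 170 of which both peaks met the rule; in the other 6, the partner's midpoint lay within 5 kb of a gene end. The overlap of the lists and the distance to gene ends chose these peaks, so both are given as a description.

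DU145 is an established human prostate cancer cell line. Chromatin immunoprecipitation followed by sequencing (ChIP-seq) was made once for ATOH8 through a Flag tag and once for TCF3 through a Myc tag, each with its own input, so there were 4 libraries and 1 per group. Chromatin was cross-linked in 1% formaldehyde over 10 min and sheared by sonication. No drug, time or other genotype is named for any library, and no source used here states how the tagged proteins were introduced or at what level. The inputs were not analysed here as separate lists, depth is unknown, and the peak lists hold no expression with which to check the cell line against markers. With 1 library per factor no test across samples could be made, and every interval below covers the counting of peaks only.

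ATOH8 and TCF3 are basic helix-loop-helix (bHLH) proteins, which bind DNA as dimers at the E-box, written CANNTG. TCF3 encodes the E proteins E12 and E47, general partners with which tissue-restricted bHLH factors dimerise, and ATOH8 belongs to the atonal-related branch of the family. Sites far from gene ends include enhancers and also promoters of alternative transcripts that start inside a longer gene.

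Many of the shared distal peaks lay at a transcript start that was not an outermost end of a protein-coding gene, and the following stretches show such places. Each is the 250 bases before a start listed by RefSeq (GRCh38.p14), 5′ to 3′ on the strand of the gene, and lay whole inside a peak of both lists. E-boxes are in capitals. The first 3 belong to the pairs that ranked highest in both lists among those with such a stretch, with 1 stretch printed per pair, and hold an antisense RNA start inside DST and internal starts of GNB5 and TJP1. The other two, at DLEU2 and DNMT3A, were chosen after their sequences were seen, because they hold a CACGTG and a repeated CACCTG.
DST-AS1, chr6:56843736-56843985, plus strand: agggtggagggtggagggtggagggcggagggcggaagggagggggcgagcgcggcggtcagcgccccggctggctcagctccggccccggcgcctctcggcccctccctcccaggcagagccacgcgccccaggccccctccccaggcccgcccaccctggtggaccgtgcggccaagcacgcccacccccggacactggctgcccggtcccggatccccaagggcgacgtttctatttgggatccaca
GNB5, chr15:52179926-52180175, minus strand: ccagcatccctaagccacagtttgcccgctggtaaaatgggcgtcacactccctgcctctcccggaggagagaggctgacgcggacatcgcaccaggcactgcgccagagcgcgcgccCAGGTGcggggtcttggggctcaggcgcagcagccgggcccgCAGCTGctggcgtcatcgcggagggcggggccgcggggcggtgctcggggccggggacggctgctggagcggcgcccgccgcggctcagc
TJP1, chr15:29822469-29822718, minus strand: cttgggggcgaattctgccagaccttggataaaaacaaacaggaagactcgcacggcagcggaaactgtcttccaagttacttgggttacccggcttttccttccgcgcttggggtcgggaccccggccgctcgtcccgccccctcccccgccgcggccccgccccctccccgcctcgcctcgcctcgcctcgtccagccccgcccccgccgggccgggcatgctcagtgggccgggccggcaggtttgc
DLEU2, chr13:50125542-50125791, minus strand: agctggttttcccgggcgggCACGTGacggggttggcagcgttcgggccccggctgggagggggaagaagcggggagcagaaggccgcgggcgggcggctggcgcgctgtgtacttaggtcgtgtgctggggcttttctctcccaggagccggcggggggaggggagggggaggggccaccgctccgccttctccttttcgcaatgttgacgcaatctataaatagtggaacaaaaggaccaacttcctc
DNMT3A, chr2:25252132-25252381, minus strand: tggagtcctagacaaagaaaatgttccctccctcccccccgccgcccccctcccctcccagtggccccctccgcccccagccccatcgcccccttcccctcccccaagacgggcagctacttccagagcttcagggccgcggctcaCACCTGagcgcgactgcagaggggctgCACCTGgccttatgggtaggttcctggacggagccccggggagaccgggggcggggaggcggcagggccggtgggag
The stretches at DST-AS1 and TJP1 held no E-box of any form, although a peak of both factors covered each. The stretch at GNB5 held the forms CAGGTG and CAGCTG. Another GNB5 stretch inside the same pair of peaks, chr15:52179692-52179941, is not printed and held no E-box. The unprinted stretch of CERNA1 in that pair held CAGCTG only. That at DLEU2 held CACGTG, and that at DNMT3A held CACCTG at 2 places. The GC content was 76% at DST-AS1, 74.4% at GNB5, 70.4% at TJP1, 65.6% at DLEU2 and 71.6% at DNMT3A. A peak reports where DNA was enriched over a stretch far longer than an E-box, so neither a match nor its absence marks the bound base.

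A few shared distal peaks covered a whole microRNA gene. The mature sequences of the microRNA gene held by a TCF3 peak beside its paired ATOH8 peak, MIR193A, and of the gene held by both peaks of a pair, MIR1469, are shown from RefSeq (GRCh38.p14) with the seed, bases 2 to 8, in capitals.
hsa-miR-193a-3p, chr17:31560050-31560071, plus strand: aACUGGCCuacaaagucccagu
hsa-miR-193a-5p, chr17:31560016-31560037, plus strand: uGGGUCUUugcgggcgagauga
hsa-miR-1469, chr15:96333261-96333282, plus strand: cUCGGCGCggggcgcgggcucc
The 3 seeds differ from one another. The MIR193A pair scored 141 in the ATOH8 list and 110 in the TCF3 list; only its TCF3 peak, which was the longer, reached over the microRNA. The MIR1469 pair lay inside NR2F2, the gene of the orphan nuclear receptor COUP-TFII, with scores of 56 for ATOH8 and 52 for TCF3. Shared distal peaks of the ATOH8 list, but none of the TCF3 list, covered MIR4505 at score 110, MIR6090 at 58 and MIR4740 at 58. The TCF3 partner at MIR4740 had its midpoint within 5 kb of a gene end and so did not meet the rule. No tRNA or other small RNA gene was covered whole.

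Shared peaks were a small share of the distal peaks of each list. Of 1160 distal ATOH8 peaks 14.9% were shared (Wilson 95% interval 13.0 to 17.1), against 28.8% of all ATOH8 peaks. Of 5798 distal TCF3 peaks 2.95% were shared (2.54 to 3.42), against 12.5% of all TCF3 peaks. These shares come from the rule itself and the lists differ in length, so nothing is read from their order. Requiring the shared bases to make up at least 50% of both peaks left 110 ATOH8 and 111 TCF3 peaks. Counting the ends of every annotated gene, pseudogenes and non-coding genes included, left 62 ATOH8 and 60 TCF3 peaks.

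The paired peaks lay close on each other, which their choice by overlap in part fixes, since peaks that share bases cannot lie far apart. Over the 170 pairs the midpoints were a median of 150.75 bp apart (95% interval 120 to 205), with the middle 50% of pairs between 67 and 347.25 bp and the whole range 1 to 1627.5 bp. In 97 pairs the midpoints were within 200 bp. The shared stretch was 551.5 bp long at the median and 143 to 1720 bp over all pairs, and in 88 pairs it took in the whole of the shorter peak. Neither factor's peak was regularly the wider one, with the ATOH8 peak wider in 89 pairs and the TCF3 peak in 81. At gene ends the 1265 pairs, chosen by the same overlap, had a median offset of 192 bp.

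Of the 10 pairs that ranked highest in both lists, by the worse of the pair's percentile ranks, 2 lay inside a protein-coding gene. One was in FKBP5, the gene of a co-chaperone of steroid receptors that is a known target of the androgen receptor. Its ATOH8 peak at chr6:35688036-35688998 scored 174 and its TCF3 peak at chr6:35688123-35688898 scored 145. The other was in DST, which encodes the cytoskeletal linker dystonin, at the start of the antisense RNA DST-AS1, with scores of 148 for ATOH8 and 143 for TCF3. The scores are the authors' own values per peak, no source used here defines them, and they are used to rank peaks within a list and not to compare the factors. The remaining 8 pairs lay outside protein-coding genes. The pair at MIR31HG, the host transcript of miR-31, scored 280 for ATOH8 and 130 for TCF3. A pair near ZNF777 had no annotated gene within 5 kb and scored 249 for ATOH8 and 176 for TCF3. The other 6 lay at or within 5 kb of annotated pseudogenes. Nearest to ZNG1F, at LOC107986999 and LOC105376060, the scores were 329 for ATOH8 and 215 for TCF3. At CNTNAP3P2 they were 154 for ATOH8 and 190 for TCF3. At ZNF767P they were 188 for ATOH8 and 120 for TCF3, and at ANKRD20A11P 154 for ATOH8 and 120 for TCF3. The other two, by RNA5SP19 and at NBEAP6 near POTEG, stood apart by their TCF3 scores of 2447 and 3876, beside ATOH8 scores of 184 and 171.

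**Figure D1:**
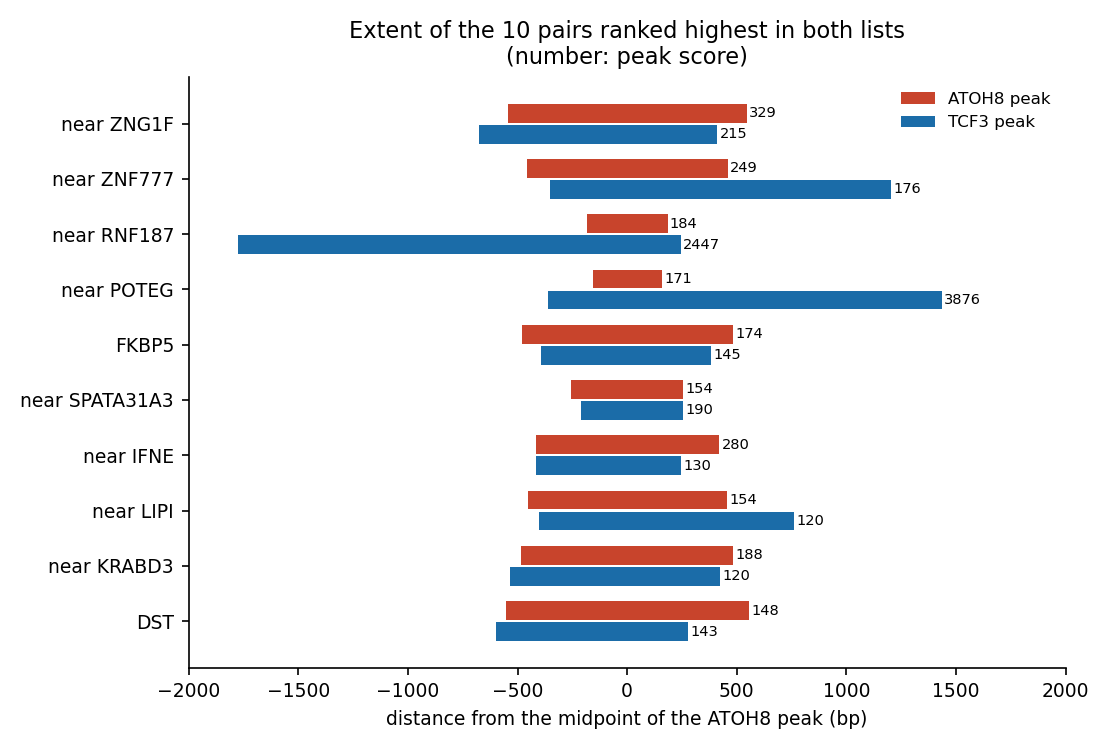
Extent of the ATOH8 peak (red, upper bar) and the TCF3 peak (blue, lower bar) in the 10 pairs ranked highest in both lists, in bp from the midpoint of the ATOH8 peak, with the peak score beside each bar and the gene that holds the pair or the nearest protein-coding gene at the left. The bars of most pairs lie over each other, while the TCF3 peaks near RNF187 (score 2447) and POTEG (score 3876) reach far beyond their ATOH8 peaks (184 and 171).

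Within the TCF3 list the shared distal peaks had a median score of 79 (95% interval 72 to 89, range 36 to 3876), against 60 (58 to 61, range 35 to 8401) for unshared distal peaks, 75 (71 to 79) for peaks shared at gene ends and 61 for the whole list. Within the ATOH8 list the medians were 85 (75 to 94, range 51 to 351) for shared distal peaks, against 76 (74 to 80, range 51 to 8846) for unshared distal peaks, 86 (85 to 90) for peaks shared at gene ends and 84 for the whole list. The intervals of shared and unshared distal peaks were thus apart for TCF3 and overlapped for ATOH8. Shared distal ATOH8 peaks were also longer, with a median of 783 bp (725 to 853) against 601 bp (573 to 632) for unshared distal ones. For TCF3 the median lengths were 790 bp (679 to 879) against 684 bp (668 to 702), with overlapping intervals. A longer peak has more bases with which to meet another. Among distal peaks narrower than the distal median width the TCF3 score was 70 for shared against 52 for unshared peaks, and among wider ones 89 against 70. For ATOH8 the same medians were 75 against 70 and 94.5 against 89. Distal peaks that reached a transcript start window, defined below, differed by list. Their ATOH8 medians were 83 (70 to 102) for shared against 91 (84 to 97) for unshared peaks, the reverse order. Their TCF3 medians kept the order, at 77 (61 to 79) against 70 (70 to 79), and the intervals overlapped in both lists. Among distal peaks that reached no window, the ATOH8 medians were 87 (75 to 103) for shared against 74 (72 to 76) for unshared peaks. The TCF3 medians there were 92 (72 to 110) against 58 (56 to 61).

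**Figure D2:**
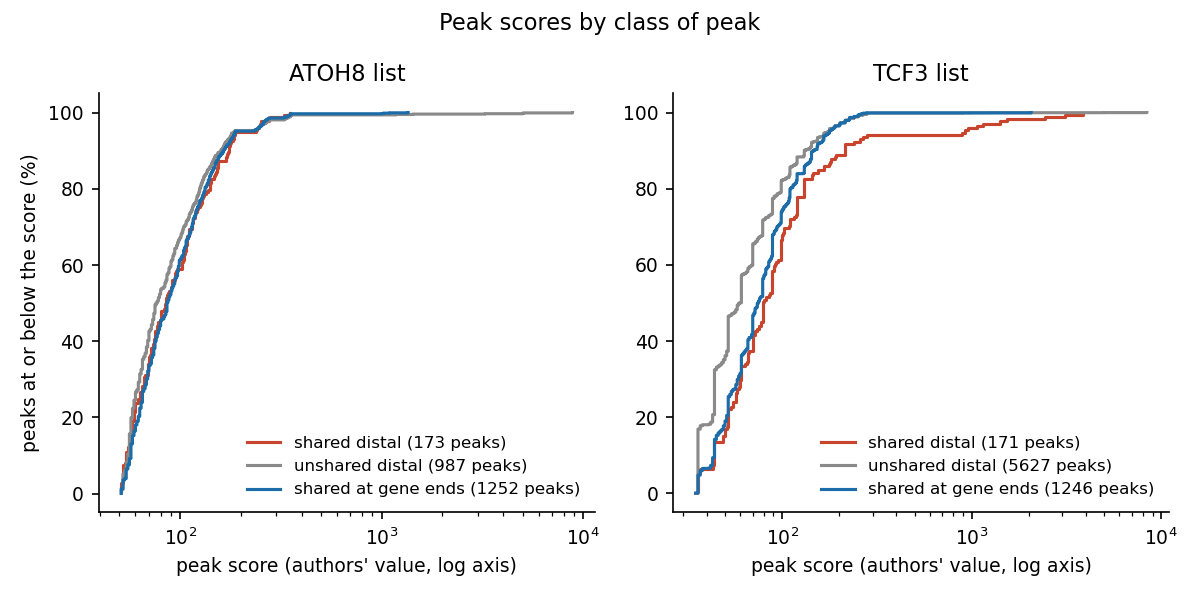
Cumulative share of peaks (%) at or below each peak score (authors' value, log axis) for shared distal peaks (red), unshared distal peaks (grey) and peaks shared at gene ends (blue), in the ATOH8 list (left) and the TCF3 list (right). The TCF3 curve of shared distal peaks lies right of the grey one over most of its length (medians 79 and 60), with highest scores of 3876 and 8401, while the ATOH8 curves lie close together (medians 85, 76 and 86).

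A larger share of the set's TCF3 peaks than of its ATOH8 peaks was among the highest 1% of their list. At the highest 10% the intervals of the lists overlapped. Of the 173 shared distal ATOH8 peaks 22, or 12.7% (8.55 to 18.5), were among the highest 10% of their list. Owing to ties, 10.2% of all ATOH8 peaks belonged to that part. Among the highest 1% was 1 peak, or 0.578% (0.102 to 3.20), against 1.01% of the list. Of the 171 shared distal TCF3 peaks 30, or 17.5% (12.6 to 23.9), were among the highest 10%, against 10.1% of the list. Among the highest 1% were 13, or 7.60% (4.50 to 12.6), against 1.07% of unshared distal TCF3 peaks and 1.09% of the list. The 5 highest ATOH8 scores of the set were 351 at the pseudogene PRODHLP, 329 near ZNG1F, 280 at MIR31HG, 275 inside SYNPO, which encodes the actin-associated protein synaptopodin, and 253 at the long non-coding RNA LINC01003. The 5 highest TCF3 scores were 3876 near POTEG, 3091 near OR11H1, 2447 by RNA5SP19, 1545 at DUXAP10 near POTEG and 1404 near OR11H12. All 5 of these TCF3 peaks lay at or within 5 kb of annotated pseudogenes.

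The scores of the paired peaks followed each other little. Over the 170 pairs, which come from the same pair of libraries, Spearman's rho between the ATOH8 and the TCF3 score was 0.16; it was 0.26 over the 96 pairs inside protein-coding genes and -0.03 over the 74 outside them. Both peaks were in the upper 10% of their lists in 5 pairs, in the upper 25% in 28 and in the upper 50% in 66. In the 13 pairs whose TCF3 peak was among the highest 1%, the TCF3 scores ran from 257 to 3876 while the ATOH8 scores ran from 51 to 184 with a median of 80. Of these 13 pairs 12 lay outside protein-coding genes, against 74 of all 170 pairs, 9 at or within 5 kb of a pseudogene, against 49, and 5 on chromosome 14, against 14. Such places were also common among the highest 1% of TCF3 scores that were distal and unshared, of which 50 of 60 peaks lay outside protein-coding genes, 32 at a pseudogene and 8 on chromosome 14. The pair inside a gene was in RUNX2, the gene of a transcription factor of bone formation, with 129 for ATOH8 and 280 for TCF3. Their shapes differed as well: the ATOH8 peak lay wholly inside the TCF3 peak in 12 of the 13, with median widths of 367 bp for ATOH8 and 2263 bp for TCF3, whereas in the other 157 pairs the medians were 804 bp for ATOH8 and 755 bp for TCF3. No source used here states how reads that match several copies of a sequence were placed, and the part of such reads in these scores was not tested.

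**Figure D3:**
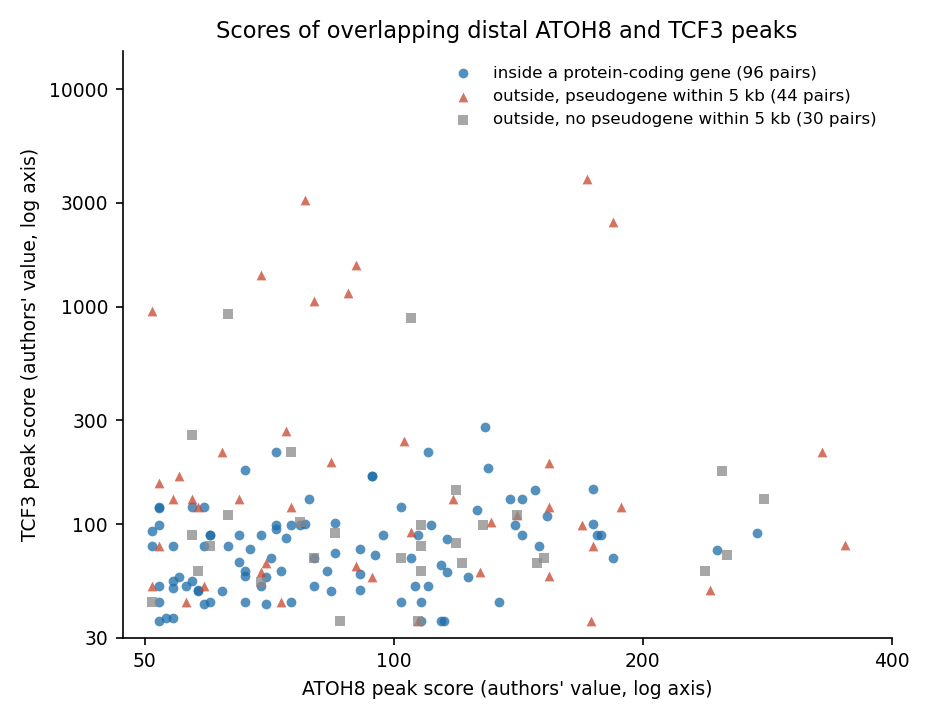
TCF3 peak score against ATOH8 peak score (authors' values, both log axes) for the 170 overlapping pairs of shared distal peaks, 1 point per pair: 96 inside a protein-coding gene (blue circles), 44 outside with a pseudogene within 5 kb (red triangles) and 30 outside with none (grey squares). Inside genes no TCF3 score passes 280; the points above that level lie outside genes and up to 3876, at ATOH8 scores no higher than 184.

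More than 1 in 2 of the shared distal peaks lay inside a protein-coding gene, deep enough to be over 5 kb from its ends. These were 100 of 173 ATOH8 peaks, or 57.8% (50.4 to 64.9), against 51.3% of unshared distal ATOH8 peaks and 72.5% of the list. For TCF3 they were 97 of 171, or 56.7% (49.2 to 63.9), against 30.2% of unshared distal TCF3 peaks and 55.7% of the list. The gene-free remainder was small: 6 ATOH8 peaks, or 3.47% (1.60 to 7.36), were neither in nor within 5 kb of any annotated gene, against 20.3% of unshared distal ATOH8 peaks and 13.3% of the list. For TCF3 the number was also 6, or 3.51% (1.62 to 7.44), against 13.2% of unshared distal TCF3 peaks and 10.7% of the list.

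Genes that do not encode protein lay beside many of them. A gene of this kind was in or within 5 kb of 117 ATOH8 peaks, or 67.6%, against 43.6% of unshared distal ATOH8 peaks and 40.5% of the list. For TCF3 it was 117 peaks, or 68.4%, against 73.1% of unshared distal TCF3 peaks and 59.4% of the list. Long non-coding RNA genes accounted for 72 ATOH8 peaks, or 41.6% (34.5 to 49.1), against 32.5% (29.7 to 35.5) of unshared distal peaks and 31.2% of the list. For TCF3 they accounted for 72 peaks, or 42.1% (35.0 to 49.6), against 37.4% (36.1 to 38.7) and 36.1%. The intervals of shared and unshared distal peaks overlapped in both lists. Pseudogenes gave opposite orders in the lists. They were near 49 ATOH8 peaks, or 28.3% (22.1 to 35.5), against 10.9% of unshared distal ATOH8 peaks and 8.02% of the list. They were near 49 TCF3 peaks, or 28.7% (22.4 to 35.8), against 40.9% of unshared distal TCF3 peaks and 25.0% of the list. The shared peaks of the lists are the same places, so their own shares agree by the way they were chosen, and only the unshared distal peaks beside them differ. Bins of 1 Mb with 20 or more TCF3 peaks held 19 of the ATOH8 peaks, or 11.0% (7.14 to 16.5). The share was 6.59% (5.20 to 8.31) of unshared distal ATOH8 peaks and 6.65% of the list. These bins held 18 of the TCF3 peaks, or 10.5% (6.76 to 16.0), against 16.5% (15.6 to 17.5) and 14.5%. Here, too, the intervals of shared and unshared distal peaks overlapped in both lists.

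**Figure D4:**
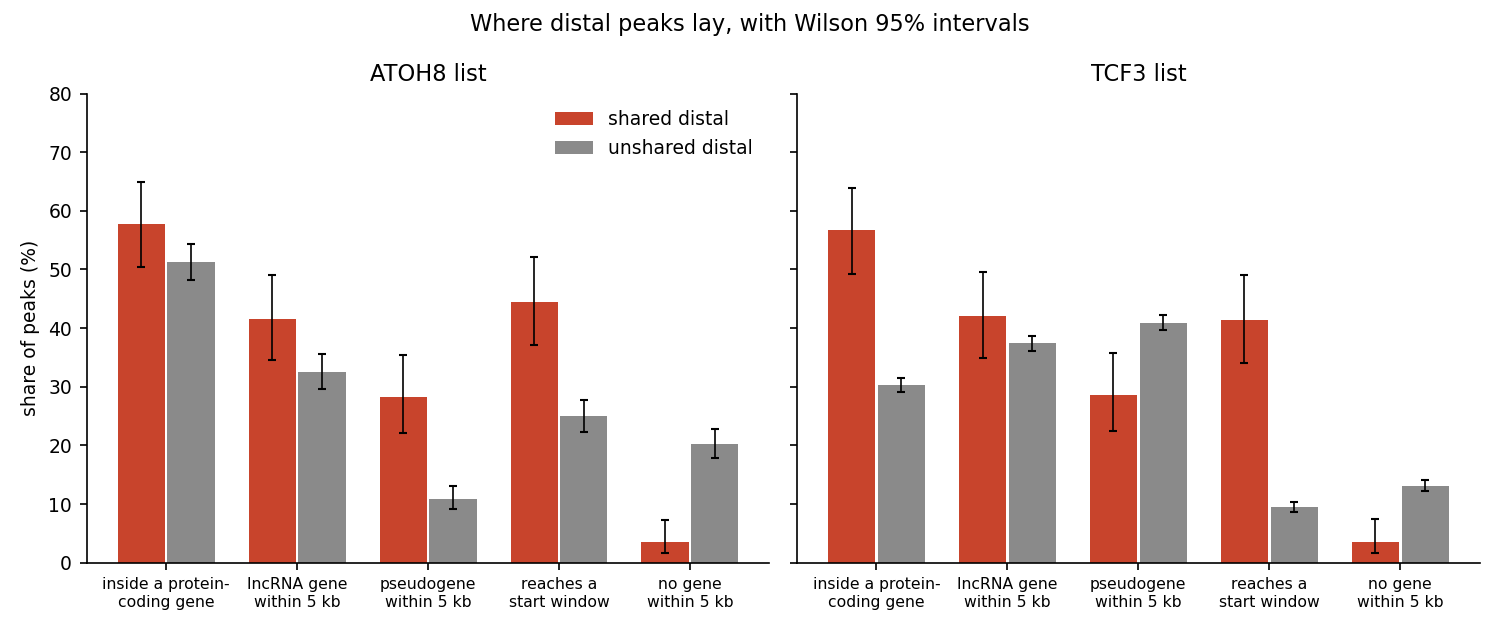
Share of distal peaks (%) with each kind of annotation, for shared (red) and unshared (grey) distal peaks of the ATOH8 list (left) and the TCF3 list (right); bars start at 0 and error bars are Wilson 95% intervals. Red bars reach 44.5% against 25.0% (ATOH8) and 41.4% against 9.50% (TCF3) for start windows, and stand at 3.47% against 20.3% and 3.51% against 13.2% for peaks with no gene within 5 kb.

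In both lists a larger share of shared than of unshared distal peaks lay at transcript starts, with Wilson intervals that did not overlap. A start window, from 250 bases before to 50 bases after a listed start of a protein-coding or long non-coding RNA gene, was reached by 73 of 164 ATOH8 peaks on the chromosomes with windows (all but chromosome 8), or 44.5% (37.1 to 52.2), against 25.0% of unshared distal ATOH8 peaks and 56.3% of the list. It was reached by 67 of 162 TCF3 peaks, or 41.4% (34.1 to 49.1), against 9.50% of unshared distal TCF3 peaks and 28.3% of the list. Being distal removes starts at gene ends, which the whole lists contain, so the unshared distal peaks are the closer comparison. Read the other way, 23.5% of distal ATOH8 peaks that reached a window were shared, against 11.3% of those that did not, and for TCF3 the shares were 11.7% against 1.94%.

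Most of these were alternative starts of the gene that held the peak. Windows of protein-coding genes were reached by 57 ATOH8 peaks, or 34.8%, against 16.8% of unshared distal peaks and 51.8% of the list, and by 48 TCF3 peaks, or 29.6%, against 2.80% and 23.0%. Of 94 shared distal ATOH8 peaks inside a protein-coding gene, 57, or 60.6% (50.5 to 69.9), reached a window of that same gene, against 32.9% of the 484 unshared distal ATOH8 peaks inside such a gene. For TCF3 it was 48 of 91, or 52.7% (42.6 to 62.7), against 9.31% of the 1600 unshared distal TCF3 peaks inside such a gene. Windows of long non-coding RNA genes were reached by 30 ATOH8 peaks, or 18.3%, against 10.2% of unshared distal peaks and 12.7% of the list, and by 30 TCF3 peaks, or 18.5%, against 7.24% and 9.41%. Peaks that reached windows on both strands, as at a start shared by divergent transcripts, were 13 of the 73 ATOH8 peaks, or 17.8%, against 11.8% of unshared distal peaks and 21.5% of the list's peaks at windows, and 11 of the 67 TCF3 peaks, or 16.4%, against 10.9% and 18.7%.

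The distance to the nearest listed start differed in the same direction without a window. The median distance was 1054.75 bp for shared distal ATOH8 peaks, against 10956.5 bp for unshared ones, and 927 bp for shared distal TCF3 peaks, against 29378.75 bp for unshared ones. Midpoints lay within 1 kb of a start for 81 ATOH8 peaks, or 49.4%, against 29.5% of unshared distal peaks and 64.4% of the list, and for 82 TCF3 peaks, or 50.6%, against 11.8% and 35.7%. Shared distal peaks thus lay either close to a start or many kilobases away, with few between.

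**Figure D5:**
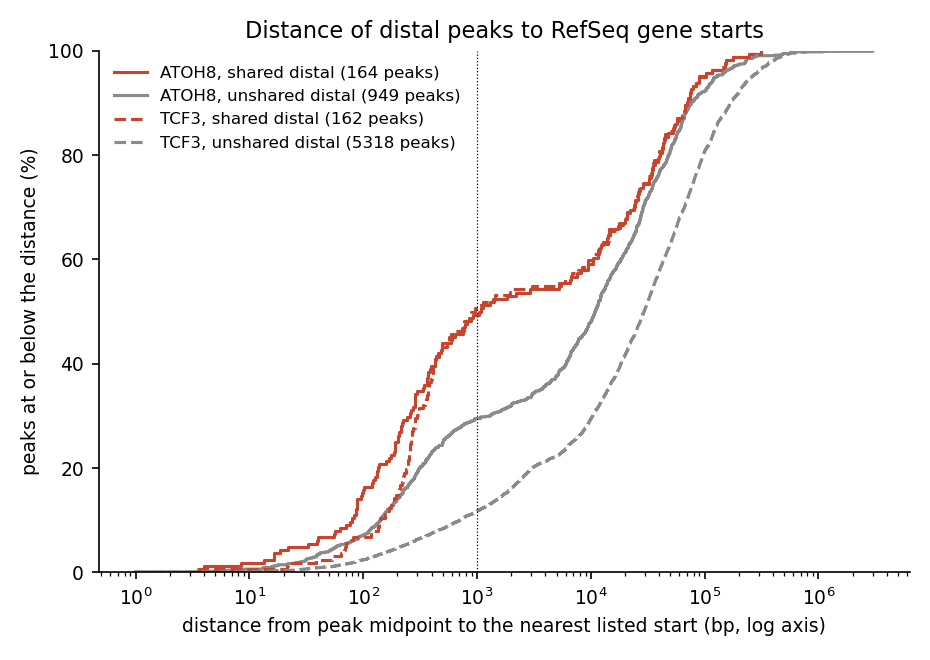
Cumulative share of distal peaks (%) by distance from the midpoint to the nearest listed RefSeq start (bp, log axis), for shared (red) and unshared (grey) peaks of the ATOH8 (solid) and TCF3 (dashed) lists; the dotted line is at 1 kb. At 1 kb the red curves stand at 49.4% (ATOH8) and 50.6% (TCF3) and the grey curves at 29.5% and 11.8%, and the red curves are nearly flat just beyond it.

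Where a pair sat at a start, both peaks tended to centre just downstream of it. The middle of the shared stretch was within 1 kb of a start in 82 of 161 pairs on the chromosomes with windows, 58 of them starts of protein-coding genes and 24 of long non-coding RNA genes. The ATOH8 midpoint was downstream of the start in 62 of these pairs and the TCF3 midpoint in 65, both of them in 57. The median position was 132.75 bp downstream for ATOH8 and 255 bp for TCF3, and the ATOH8 midpoint was the closer to the start in 54 pairs and the TCF3 midpoint in 28. Each pair was set against 1 start, so where peaks reached windows on both strands, the direction can depend on which start was taken. Each factor has 1 library and peak ends depend on the caller, so the difference in position has no replicate check. Positions of this kind are not given here for unshared distal peaks or for pairs shared at gene ends. The centring is thus not shown to be particular to the distal set.

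Sorted by where they lay, the pairs had different median scores but overlapping ranges. The 65 pairs inside a protein-coding gene and at a start window had median scores of 73 for ATOH8 and 77 for TCF3. The 25 pairs inside a gene and away from windows had 94 for ATOH8 and 70 for TCF3. Outside protein-coding genes, the 14 pairs at a start window had 108 for ATOH8 and 75.5 for TCF3, the 43 at pseudogenes 88 for ATOH8 and 120 for TCF3, and the 14 at neither 106.5 for ATOH8 and 100.5 for TCF3. The pairs at starts inside genes, the most numerous class, thus had the lowest ATOH8 median of these classes, and the pairs at pseudogenes had the highest TCF3 median. These medians carry no interval. ATOH8 scores ran from 51 to 246 at starts inside genes and from 51 to 351 at pseudogenes. TCF3 scores there ran from 36 to 280 and from 36 to 3876. The 9 pairs on chromosome 8, for which no windows were used, are left out of this sorting.

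The pairs inside genes fell in 94 protein-coding genes, and those named in the next sentences were picked by function after their values were seen, with no claim that any function was frequent. Several encode transcription factors. RORA, a nuclear receptor of the circadian clock, held a pair with scores of 174 for ATOH8 and 100 for TCF3. TFAP2A, the gene of the AP-2 alpha factor of epithelial and neural crest development, held 2 pairs, with 140 for ATOH8 and 99 for TCF3 at one and 85 for ATOH8 and 74 for TCF3 at the other. TGIF1, a repressor of TGF-beta signalling, had 184 for ATOH8 and 70 for TCF3. ETS1, NFIA and NR2F2 held pairs low in both lists, with ATOH8 scores of 58, 54 and 56 and TCF3 scores of 50, 51 and 52. Rank thus varied widely among them, and no pair of this group was in the upper 10% of both lists.

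Genes of cytoskeleton and cell junctions form another group. DLG5, a scaffold protein of cell polarity, held a pair of 143 for ATOH8 and 130 for TCF3. The tropomyosin genes TPM1 and TPM4, whose products bind along actin filaments, had ATOH8 scores of 143 and 52 and TCF3 scores of 89 and 36. TJP1, which encodes the tight junction protein ZO-1, had 111 for ATOH8 and 99 for TCF3. LAMA5, which encodes a laminin chain of basement membranes, held 2 pairs, with ATOH8 scores of 65 and 53 and TCF3 scores of 67 and 37. Within the tropomyosin genes and within LAMA5, the place with the higher ATOH8 score also had the higher TCF3 score. These are 2 comparisons of 2 pairs each, and nothing is read from them.

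Genes of chromatin and of signalling held further pairs. DNMT3A, a DNA methyltransferase that sets new methylation, had 91 for ATOH8 and 59 for TCF3, and UHRF1, which helps to keep methylation through replication, had 74 for ATOH8 and 86 for TCF3 in a stretch where ARRDC5 is also annotated. LIFR, the receptor of leukaemia inhibitory factor, had 72 for ATOH8 and 215 for TCF3. PTCH1, the receptor of hedgehog ligands, had 52 for ATOH8 and 99 for TCF3. GNB5 and GNB4, both of which encode G protein beta subunits, had ATOH8 scores of 126 and 65 and TCF3 scores of 116 and 89. HSP90AA1, an inducible HSP90 chaperone gene, had 130 for ATOH8 and 181 for TCF3. The pairs of LIFR, PTCH1 and GNB4 were in the upper 25% of the TCF3 list and in the lower 50% of the ATOH8 list.

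Outside protein-coding genes some pairs lay at host transcripts of microRNAs, and the pairs of this paragraph, too, were chosen after their values were seen. Besides MIR31HG, DLEU2, the host of miR-15a and miR-16-1, had 102 for ATOH8 and 70 for TCF3, and MIR155HG, the host of miR-155, had 57 for ATOH8 and 89 for TCF3. MIR23AHG, the host of the miR-23a cluster, had 57 for ATOH8 and 257 for TCF3. A pair on chromosome 21 lay in the ribosomal RNA gene RNA45SN2, a member of a repeated family, with 105 for ATOH8 and 887 for TCF3. On chromosome 1, 1 pair lay among tRNA genes, TRG-TCC4-1 among them, with 119 for ATOH8 and 143 for TCF3. Values at repeated genes are uncertain, since reads can match several copies.

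Across the gene lists chosen for this cell line and these factors, few genes had a shared distal peak inside them or within 50 kb. The background was 1.21% of 19974 protein-coding genes for ATOH8 peaks and 1.20% for TCF3 peaks. No gene had one among 27 bHLH activators and E proteins, 15 ID and HES repressors, 18 genes of BMP and SMAD signalling, 21 of lipid synthesis, 25 of ferroptosis, 15 of the hypoxia response and 15 housekeeping genes. Lists of this length hold few genes at that background, and a gene without a listed peak is not thereby unbound. Of 16 epithelial-mesenchymal genes 1 had a peak of both lists, TJP1, at 111 for ATOH8 and 99 for TCF3. Of 16 prostate lineage genes 3 had one: FKBP5, with the scores given above, KRT8, a keratin of luminal epithelium, with 108 for ATOH8 and 36 for TCF3, and its neighbour KRT18, which the same KRT8 pair reached from 44723 bp away for ATOH8 and 44115.5 bp for TCF3. The KRT8 pair was thus the only one behind both keratin genes.

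The start windows that lay whole inside a shared distal peak of either list were rich in GC and CpG. The 75 windows had a median GC content of 74.7%, against 58.7% over all 34789 windows of 300 bases, and a ratio of observed to expected CpG of 0.891 against 0.578. An E-box CANNTG, whose pattern is the same on both strands, was in 48 windows, or 64.0% (52.7 to 73.9), against 68.7% of all windows. Of its forms, CAGCTG was in 19 windows, or 25.3% (16.9 to 36.2), against 17.9%, and CACCTG or its reverse complement CAGGTG in 19, or 25.3% (16.9 to 36.2), against 20.6%. CATATG was in 0 of 75, which allows a share of up to 4%, against 3.03% of all windows. The intervals of all 4 motifs contain the share over all windows, and base composition differs between the 2 sets of windows. Some windows overlap within the same peak, so an E-box can fall in several of them. The CAGCTG near GNB5, for instance, lies in windows of both GNB5 and CERNA1. The intervals take each window as separate and can thus be too narrow. Set against unshared distal peaks of the same list, CANNTG was in 60.7% (47.6 to 72.4) of the 56 windows inside shared distal ATOH8 peaks, against 77.9% (69.4 to 84.5) of 113 windows, and CACCTG or CAGGTG in 28.6% (18.4 to 41.5), against 44.2% (35.4 to 53.4). For TCF3, CANNTG was in 63.4% (48.1 to 76.4) of 41 windows, against 64.6% (59.7 to 69.3) of 379, and CACCTG or CAGGTG in 24.4% (13.8 to 39.3), against 27.2% (22.9 to 31.9). The E-box shares of shared distal peaks were thus below those of unshared distal peaks in the ATOH8 list and close to them in the TCF3 list, with overlapping intervals. The median GC content was 74.5% (72.7 to 75.3) against 71.3% (70.0 to 72.3) for ATOH8, and 74.3% (72.7 to 76.0) against 64.7% (63.3 to 66.0) for TCF3. The CpG ratio was 0.891 against 0.849 for ATOH8 and 0.909 against 0.716 for TCF3. Windows inside peaks shared at gene ends had a median GC content of 74.3% (73.7 to 75) for ATOH8 and 76% (75.3 to 76.7) for TCF3. Their CpG ratio was 0.908 for ATOH8 and 0.925 for TCF3. CANNTG was in 61.9% (58.1 to 65.6) of these ATOH8 windows and 54.8% (50.2 to 59.4) of these TCF3 windows. The richness in GC and CpG was thus not particular to the distal set.

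By chromosome, the set was spread widely. The share of distal ATOH8 peaks that were shared ran from 5.41% on chromosome 2 to 26.3% on chromosome 13 among the autosomes, with the highest numbers, 15 each, on chromosomes 1 and 14. For TCF3 it ran from 1.11% on chromosome 12 to 7.93% on chromosome 6. On chromosome X 0 of 3 distal ATOH8 peaks and 0 of 21 distal TCF3 peaks were shared. The pairs lay in 151 bins of 1 Mb, only 5 of which held 3 or more. Of these, 2 adjoined each other on chromosome 14, with 3 and 4 pairs, and took in the pairs near OR11H12, POTEM, POTEG and OR11H2.

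At the limit of 5 kb the scores on either side overlapped. For ATOH8 the nearest inside the rule were in ZNF800, ZNF574 and HIVEP1, at 5020, 5102 and 5139 bp with scores of 138, 54 and 169, and the nearest left out were by FBXO43, TMEM250 and UVSSA, at 4953.5, 4888.5 and 4861 bp with scores of 151, 331 and 106. For TCF3 those inside were in FAM120B, ZNF800 and IQANK1, at 5002, 5006.5 and 5064.5 bp with scores of 66, 130 and 109, and those left out were by CDKN2C, TRAF2 and FBXO43, at 4966.5, 4963.5 and 4919 bp with scores of 36, 50 and 99. The ZNF800 pair was the nearest pair with both peaks inside.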

How the data were processed

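The authors deposited 1 peak list for the ATOH8 and 1 for the TCF3 ChIP library, with chromosome, start, end and a score per peak; the build is hg38, per the submitters' processing notes. No source used here names the aligner, peak caller, threshold, use of the input, counting of coordinates from 0 or 1, or the meaning of the deposited score. Lines without a peak (3 for ATOH8, 5 for TCF3) and peaks on other sequences (46 and 60) were left out. The lists may therefore be held in part, in which case an unshared peak may have had a partner, and shares of a list refer to the lines held. Each library stood alone, so no replicates were pooled or compared.

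Overlaps, distances and medians were computed with Python 3.11.15, pandas 2.3.3, numpy 2.4.6 and scipy 1.17.1, and checked on simulated lists. Annotation, 34961 start windows and microRNAs came from RefSeq GRCh38.p14, with none of chromosome 8 among the windows. Shares carry Wilson 95% intervals and medians order-statistic 95% intervals. No test was made. The named genes are the 10 pairs of best worse rank, the 5 highest scores per list, genes of the lists, the 3 peaks on either side of the limit, covered small RNAs and the printed windows; others are said to be chosen after their values were seen. The regions and gene lists were chosen with earlier results of these data known.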

Additional observations from a re-analysis of the deposited data

How the results depend on the processing

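Each of 11 summary values was recomputed under 6 alternatives; of the 66 values, 47 moved by less than their interval, or by less than 1.5 times for a count, and 19 moved more. A limit of 10 kb, the nearer edge in place of the midpoint, and leaving out 1 Mb bins of 20 or more TCF3 peaks moved none. With the shared bases at least 50% of both peaks, 110 ATOH8 peaks (9.48% of distal) and 111 TCF3 peaks (1.91%) were left, and the median offset was 88.25 bp. With the ends of all annotated genes, 62 ATOH8 peaks were left (9.25% of distal; 83.9% inside protein-coding genes, 9.68% near another gene), and 60 TCF3 peaks (83.3% inside, 10% near another gene), since that limit removes peaks near the ends of other genes. In the higher-ranked 50% of each list, 65 ATOH8 peaks (12.3% of distal, median score 130) and 63 TCF3 peaks (2.36%, median score 99, 49.2% inside protein-coding genes) were left; that choice uses the score itself. No paired analysis was possible because each group is 1 library with no replicate number, and for the same reason no replicate could be left out. Depth is unknown, so a place without a listed peak is not shown to be unbound, and the peaks at pseudogenes and repeated genes rest on a placing of reads that no source used here describes.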
